A study of Rattus norvegicus with 9 samples.

Results

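The genes described here are those whose expression levels in the right ventricle separated all banded arrays from the sham arrays, whether or not the banded ventricle was fibrotic. Pulmonary artery banding (PAB) constricts the vessel into which the right ventricle ejects, so that the ventricle works against a raised pressure. Of 14506 genes compared, 195 had all 6 banded arrays above all 3 sham arrays and 238 had all 6 below, which is 1.34% and 1.64% of the genes. With interchangeable arrays, a gene would meet each criterion in 1 of the 84 ways of choosing 3 of 9 arrays as sham. That share is close to both of these. The counts are therefore a description, and do not say how many genes banding shifted. The tissue was the right ventricle of male SD rats, a common outbred laboratory strain, and the labels name no transgene or drug in any group. The sham-operated group had the operation without the constriction. The banded rats were divided by the fibrotic area of the right ventricle into an F+ group, with much fibrosis, and an F- group, with little. Each group was measured on 3 Affymetrix Rat Gene arrays, so that 6 banded arrays were compared with 3 sham arrays, all 9 arrays of the series. Whether the 3 arrays of a group stand for 3 animals is not stated in the sources used here, so every p-value here reflects array-to-array spread, part or all of which may be technical.

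A ventricle that contracts against a high load adds sarcomeres, grows thicker, and turns on genes of fetal heart muscle, among them the natriuretic peptides. In its energy supply, a loaded ventricle is known to move from fatty acids toward glucose, and the transcripts of fatty acid oxidation are controlled by the nuclear receptors PPAR alpha and ERR alpha. Ion channels of the muscle cell membrane set the shape of the action potential, and several potassium channels are known to be reduced in hypertrophy. Fibrosis, the deposition of collagen by fibroblasts, can accompany this growth but need not.

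Values are the signal intensities as the authors deposited them, between about 1 and 190, with nearly equal medians on the 9 arrays (33.4 to 33.9). Neither the normalization nor the scale of these values is stated. Differences are therefore given as log2 of the deposited values, the mean of the F- and F+ group means minus the sham mean, and hold on that scale only. If the deposited values were themselves a transformed intensity, the true folds would be of another size, whereas the order of the arrays for a gene would not be affected. Where a gene had more than 1 feature (a probe set of the array), the brightest was used. Heart muscle genes marked the tissue on every array: Myl2, the ventricular myosin light chain, lay between 139.8 and 153.9, and Irx4, a ventricular transcription factor, between 64.6 and 74.5. Tnnt2, cardiac troponin T, lay between 165.6 and 168.4. In a piece of tissue, fewer cells of a type and less RNA per cell cannot be told apart.

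Before any result, 3 arrays stood apart. Sham array 2 had the atrial genes high: Bmp10, an atrial growth factor, was at 85.8 there and at 18.7 and 18.4 on the other sham arrays. Sln, the atrial calcium pump inhibitor sarcolipin, was at 115.1 there against 53.8 and 43.9, and Myl7, the atrial myosin light chain, at 149.9 against 88.5 and 92.2. Sham array 1 had immediate early genes high: Fos was at 88.9 against 52.0 and 56.3, and Nr4a1 at 92.6 against 47.8 and 51.4. F- array 1 had the natriuretic peptides at the level of the F+ arrays, with Nppb, B-type natriuretic peptide, at 151.8 against 98.5 and 101.8 on the other F- arrays. Apart from Nppb, the genes of this and the last paragraph were chosen after their values were seen. Without 1 of the 9 arrays, or without both sham array 2 and F- array 1, the difference of 23 of the 83 named genes changed sign or moved by more than 1.5 times, and 4 changed sign. Values without an array are given beside the larger of these differences.

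**Figure D1:**
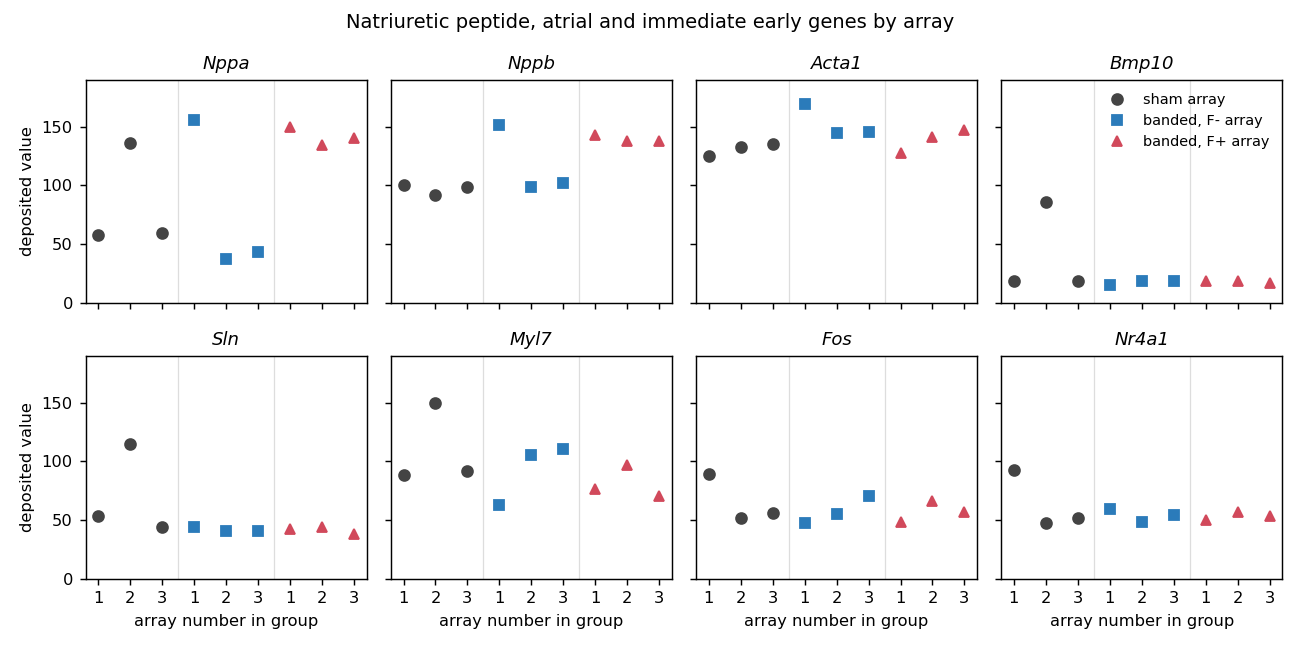
Deposited value (vertical axis, from 0, no unit stated) of 8 genes on each of the 9 arrays, with the array number in its group on the horizontal axis. Sham array 2 is alone at 85.8 for Bmp10 and 115.1 for Sln, sham array 1 is alone at 88.9 for Fos and 92.6 for Nr4a1, and F- array 1 is at 151.8 for Nppb, above the other F- arrays at 98.5 and 101.8.

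Across all features no difference passed the test. With limma, a linear model with moderated variances, 0 of 29215 features were higher and 0 were lower in the banded arrays at a Benjamini-Hochberg adjusted p under 0.05 (0% and 0%), and the lowest adjusted p was 0.726. At an unadjusted p under 0.05, 446 genes were higher and 459 lower, 3.07% and 3.16% of the 14506. Every gene below is therefore described by the position of its arrays, and none is said to have risen or fallen. The separated genes had small differences: the median size was 0.089 on the log2 scale in both directions. Only 11 of the 195 genes above and 8 of the 238 below differed by more than 1.2-fold, and 45 in each direction by more than 1.1-fold. Of the separated genes, 164 and 194 lay above the dimmest 33.3% of features, where the deposited values exceed 24.8, and the leading genes below are taken from these.

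**Figure D2:**
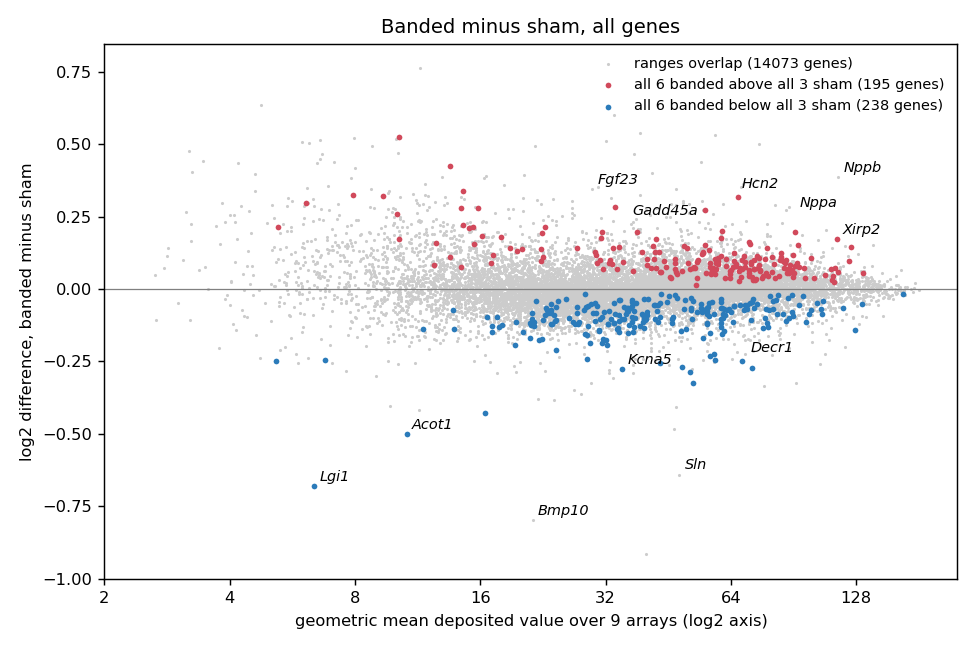
Log2 difference, banded minus sham (vertical axis), against the geometric mean deposited value over the 9 arrays (horizontal log2 axis) for 14506 genes, 1 point each, with the 195 and 238 genes whose banded and sham arrays did not overlap in colour. Most coloured points lie close to 0, with a median size of 0.089, and several of the genes with large differences, such as Bmp10 and Sln, are grey because their arrays overlapped.

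Among the genes above, an ion channel led. Hcn2, which encodes a pacemaker channel that passes an inward current at negative voltages, was at 51.4, 58.8 and 63.0 on the sham arrays, at 76.5, 66.3 and 65.2 on the F- arrays and at 76.5, 77.3 and 69.0 on the F+ arrays. Every banded array was above the highest sham array, with F- array 3 nearest to it, and the difference was 0.32 (SE 0.079), a fold of 1.24. Gadd45a, a stress-induced gene of growth arrest and DNA repair, was at 47.6, 48.7 and 50.1 in the sham-operated group. It was at 71.4, 52.4 and 50.5 in the F- group and at 60.0, 60.0 and 62.0 in the F+ group, a difference of 0.27 (SE 0.10). The F+ arrays stood well clear of the sham arrays, whereas F- arrays 2 and 3 lay close to them. Xirp2, an actin-binding protein of the intercalated disc, had a tight sham group at 106.4, 106.8 and 106.6. Its banded arrays were at 134.6, 108.5 and 108.9 in the F- group and at 117.4, 125.8 and 127.6 in the F+ group, a difference of 0.17 (SE 0.070). The adjusted p from limma was 0.726 for each of these genes.

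The other leading genes above came from several functions. F13a1, the A subunit of coagulation factor XIII, which resident macrophages carry, was at 55.4, 55.6 and 56.3 on the sham arrays. It was at 62.9, 58.3 and 59.3 in the F- group and at 63.2, 72.9 and 68.5 in the F+ group (difference 0.20). Alox5, the leukotriene-forming 5-lipoxygenase, was between 38.9 and 39.6 on the sham arrays and between 40.5 and 47.5 on the banded arrays (difference 0.17). Anxa1, a phospholipid-binding annexin that restrains inflammation, was between 54.0 and 57.7 on the sham arrays and between 58.7 and 70.6 on the banded arrays (difference 0.17). For these 3 genes, which leukocytes also express, the F+ mean was above the F- mean. Phf11 was at 29.7, 30.1 and 29.0 in the sham-operated group and reached 45.4 on F- array 2 and 40.7 on F+ array 3, with the other banded arrays between 31.2 and 36.9 (difference 0.28). Sh2d4a, Vnn1 (pantetheinase, which releases pantothenic acid and cysteamine), Cmc1 (a cytochrome c oxidase assembly factor), Aspa (aspartoacylase) and Tars3 (a threonyl-tRNA synthetase) completed the 12, with differences between 0.16 and 0.20. The difference of Vnn1 was 0.12 without sham array 2, its lowest value, and that of Cmc1 was 0.11 without sham array 1.

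Among the genes below, a potassium channel and enzymes of fatty acid handling led with detoxifying enzymes. Kcna5, which encodes the Kv1.5 channel of the ultrarapid potassium current, was at 37.7, 40.5 and 41.3 in the sham-operated group. It was at 30.9, 34.3 and 34.6 in the F- group and at 32.0, 30.9 and 34.6 in the F+ group, a difference of -0.28 (SE 0.054) with nearly the same level in both banded groups. Slc27a1, a fatty acid transport protein, was at 92.4, 78.8 and 74.3 on the sham arrays. It was at 66.2, 70.2 and 70.0 in the F- group and at 68.7, 61.8 and 67.9 in the F+ group (difference -0.27, SE 0.070). Decr1, a mitochondrial reductase needed to oxidise polyunsaturated fatty acids, was at 84.8, 71.6 and 73.0 on the sham arrays, and no banded array exceeded 68.8 (difference -0.25, SE 0.065). For both of these genes sham array 1 was the highest of the 9 arrays, and the other sham arrays were still above every banded array.

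Among the other leading genes below, Timp4, the tissue inhibitor of metalloproteinases that is abundant in heart, was at 67.5, 64.4 and 65.5 on the sham arrays, at 53.6, 59.9 and 60.2 on the F- arrays and at 53.6, 51.5 and 55.1 on the F+ arrays. The difference was -0.24 (SE 0.044), a sham level 1.18-fold above the banded level. Igfbp3, which binds insulin-like growth factors in the extracellular space, was at 64.0, 63.0 and 63.9 in the sham-operated group. It was at 54.4, 56.7 and 57.9 in the F- group and at 49.8, 55.0 and 52.0 in the F+ group (difference -0.23, SE 0.035). The gap between the lowest sham array and the highest banded array was wider for Igfbp3 than the whole range of its sham arrays. Cntfr, the receptor subunit for ciliary neurotrophic factor, was between 47.6 and 50.6 on the sham arrays and between 35.7 and 45.0 on the banded arrays (difference -0.26). Ltbp1, which stores latent TGF-beta in the matrix, was between 56.2 and 62.5 on the sham arrays and between 50.8 and 55.0 on the banded arrays (difference -0.17).

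Sult1a1, a phenol sulfotransferase, had the largest difference below among separated genes brighter than 24.8, at -0.33 (SE 0.084), with 69.6, 56.2 and 55.9 on the sham arrays and between 41.5 and 53.5 on the banded arrays. Adh1c, an alcohol dehydrogenase, was between 51.7 and 64.8 on the sham arrays and between 40.7 and 51.5 on the banded arrays (difference -0.29), and its difference was -0.16 without sham array 2 and F- array 1. Pkhd1l1 had a difference of -0.27, Hhex, a homeobox transcription factor, of -0.24, and Tpd52l1 of -0.23. Or2t47, an olfactory receptor gene, had -0.19. Olfactory and vomeronasal receptor genes, which belong to large families of near-identical copies that one probe can share, made up 21 of the 195 genes above and 9 of the 238 below, and their values are uncertain for that reason. The share of these families over all genes compared was not counted, so neither number can be called high or low. Larger differences below included dim genes: Lgi1 lay between 7.8 and 9.5 on the sham arrays and between 4.2 and 7.1 on the banded arrays (difference -0.68), and Acot1 is described with the fatty acid genes.

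**Figure D3:**
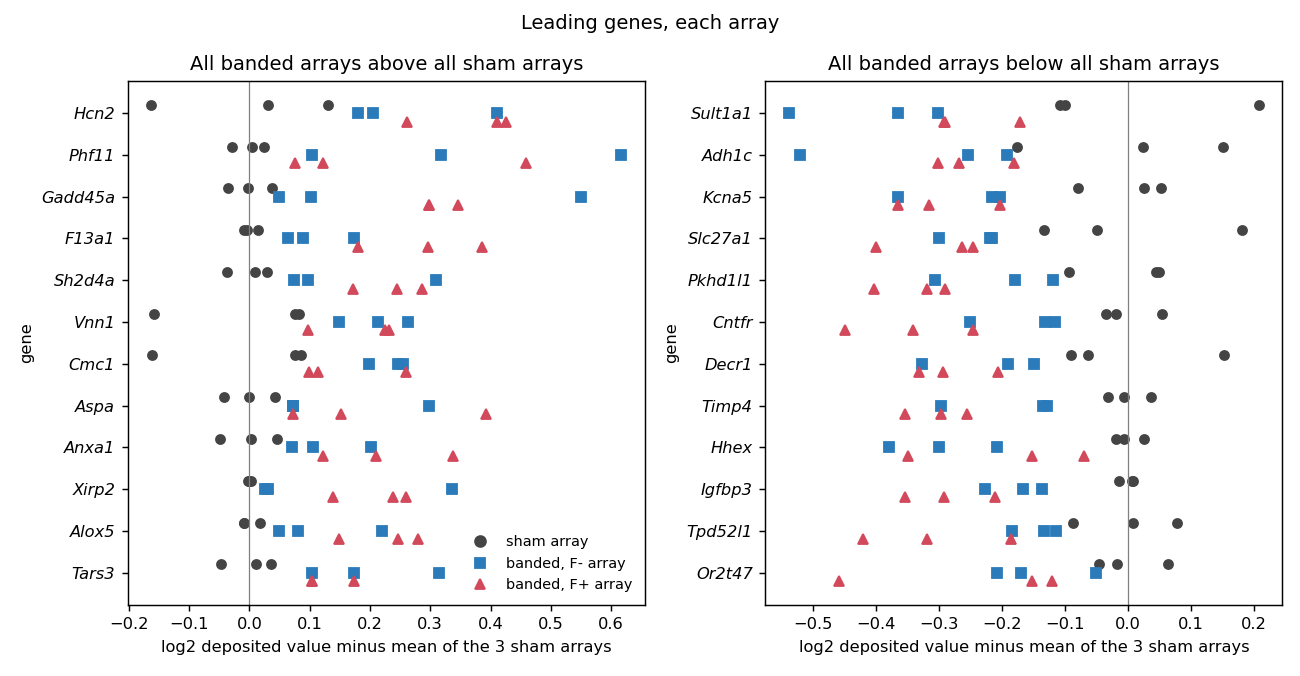
Log2 deposited value minus the mean of the 3 sham arrays (horizontal axis) for the 12 leading genes in each direction, with 1 point for each of the 9 arrays. The sham and banded points of a gene do not overlap because the genes were chosen so. The distance between the nearest sham and banded array is small for Or2t47 and Adh1c, and it is wide for Igfbp3, where the banded arrays reach from 49.8 to 57.9 and the sham arrays start at 63.0.

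Promoters are shown for 4 of the leading genes, chosen because each holds a match to a motif of a factor known in heart muscle, and 1 match in each is marked. The sequences are from RefSeq, build GRCr8, for which 64 of the 83 named genes had an entry, and cover the 250 bases before the gene's start, 5′ to 3′ on the gene's strand, with the matching letters in capitals. For Hcn2 the capitals mark the estrogen-related receptor motif TCAAGGTCA on the opposite strand, 174 bases before the start, which holds the shorter nuclear receptor motif AGGTCA within it. For Xirp2 they mark the MEF2 motif 74 bases before the start, for Slc27a1 AGGTCA on the opposite strand, 242 bases before it, and for Kcna5 the muscle CAT motif CATTCC, 161 bases before it. Other motifs searched also had matches, which are not marked: the NFAT core TTTCC was in Hcn2, Kcna5 and Xirp2, and CATTCC was in Hcn2. Xirp2 also held AGGTCA, the AP-1 motif TGANTCA and the heat shock motif TTCNNGAA.
Hcn2, chr7:10639458-10639707, minus strand: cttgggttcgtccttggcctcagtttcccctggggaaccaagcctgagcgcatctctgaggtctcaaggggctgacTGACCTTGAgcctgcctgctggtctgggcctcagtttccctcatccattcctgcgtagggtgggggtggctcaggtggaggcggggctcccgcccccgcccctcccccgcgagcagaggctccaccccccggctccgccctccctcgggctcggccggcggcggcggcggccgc
Xirp2, chr3:72533936-72534185, plus strand: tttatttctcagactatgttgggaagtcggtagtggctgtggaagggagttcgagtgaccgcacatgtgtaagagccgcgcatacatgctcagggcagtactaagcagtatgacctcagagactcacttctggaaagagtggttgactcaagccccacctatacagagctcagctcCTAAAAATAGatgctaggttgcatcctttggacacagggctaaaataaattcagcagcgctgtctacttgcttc
Slc27a1, chr16:18312717-18312966, plus strand: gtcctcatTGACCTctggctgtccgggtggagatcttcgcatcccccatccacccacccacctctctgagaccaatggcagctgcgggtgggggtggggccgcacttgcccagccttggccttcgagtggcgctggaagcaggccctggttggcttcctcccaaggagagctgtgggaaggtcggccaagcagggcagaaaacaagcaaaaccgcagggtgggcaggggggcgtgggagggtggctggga
Kcna5, chr4:161043810-161044059, minus strand: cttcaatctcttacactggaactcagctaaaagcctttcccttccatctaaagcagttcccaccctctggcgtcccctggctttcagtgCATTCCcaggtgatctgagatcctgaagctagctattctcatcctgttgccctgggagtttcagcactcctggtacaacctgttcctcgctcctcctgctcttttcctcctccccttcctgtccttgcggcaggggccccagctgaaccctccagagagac
Searched on both strands, TCAAGGTCA was in 0.368% of all 27456 promoters of this length, the MEF2 motif in 3.07%, AGGTCA in 13.7%, CATTCC in 11.8%, TTTCC in 56.7%, TGANTCA in 6.36% and TTCNNGAA in 7.23%. The separated genes come from the genes measured. In the 11968 promoters of these, TCAAGGTCA was in 0.226%, the MEF2 motif in 2.45%, AGGTCA in 11.8% and CATTCC in 10.4%. Of the separated genes with a promoter, 1 of 167 above (0.599%) and 0 of 195 below held TCAAGGTCA, and 5 of 167 above (2.99%) and 2 of 195 below (1.03%) held the MEF2 motif. AGGTCA was in 23 of 167 (13.8%) above and 24 of 195 (12.3%) below, and CATTCC was in 16 (9.58%) and 22 (11.3%). These are matches of letters, and binding was not measured.

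The separated genes stood at similar levels in both banded groups. Their median difference from the sham mean was 0.087 for F- and 0.090 for F+ among the genes above, and -0.090 and -0.087 for the genes below. Of the genes above, 103 were further from the sham level in F+ and 92 in F-, and of those below 119 and 118. Between the F+ and F- groups, 6 of the 195 genes above (3.08%) and 9 of the 238 below (3.78%) had an unadjusted limma p under 0.05, where 8.47% of all 14506 genes did, and 0 of both had an adjusted p under 0.05. Genes that differ much between the banded groups can less easily have all 6 arrays on one side, so these shares are a description and no test. On the log2 scale, F+ minus F-, these genes included F13a1 (0.18), Igfbp3 (-0.11), Cntfr (-0.18) and Tpd52l1 (-0.16).

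Within the banded groups the arrays were uneven. The genes above had a median difference from the sham mean of 0.13 on F- array 1, of 0.063 and 0.064 on F- arrays 2 and 3, and of 0.068, 0.098 and 0.085 on the F+ arrays. F- array 1 gave the highest value for 86 of the 195 genes above and the lowest value for 88 of the 238 genes below. Without it, the numbers were 204 and 257, since leaving out an array can only add genes to those separated. The numbers were largest without a sham array, of which there are only 3. Without sham array 2 they were 518 and 703, and without sham array 1 they were 470 and 462. Without sham array 3 they were 511 and 572. Without F- array 2 they were 312 and 327, and without F- array 3 they were 302 and 404. Without F+ array 1 they were 313 and 315. Even with interchangeable arrays, the criterion is easier to meet without a sham array than without a banded array. The larger counts without a sham array therefore do not show an influence of particular sham arrays. The direction balance depended on the scaling: after centring each array on its median, 307 genes were above and 176 below, in place of 195 and 238, and features with an unadjusted limma p under 0.05 were 1067 higher and 760 lower, in place of 886 and 952.

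The gene lists from here on were chosen with earlier results of these data known. Their counts and shares are a description and no test. Genes of hypertrophy and the fetal heart were higher in the banded arrays. All 13 measured members had a positive difference, with a median of 0.12, where the median over all 14506 genes was -0.0020 with 7002 genes higher and 7503 lower. By array, the list's median was 0.030, -0.011 and 0.013 on the sham arrays and 0.31, 0.024 and 0.031 on the F- arrays, and the F+ arrays were at 0.14, 0.16 and 0.16. F- array 1 and the F+ arrays were thus above the sham arrays, F- array 2 lay within their range and F- array 3 at its top, and 3 of the 13 genes had an F- mean below the sham mean, whereas 0 had such an F+ mean. Only Xirp2 had all banded arrays above the sham arrays. Nppb came closest: it was at 100.2, 91.9 and 98.8 on the sham arrays, at 151.8, 98.5 and 101.8 in the F- group and at 142.7, 138.0 and 137.4 in the F+ group. F- array 2 lay below sham array 1, and the other banded arrays lay above all sham arrays. The difference of Nppb was 0.39, or 0.25 without sham array 2 and F- array 1. Its exact two-sided permutation p was 0.0714 over the 84 ways of choosing 3 of 9 arrays, whose smallest possible p is 0.0238. After adjustment over the 13 genes tested in this way it was 0.362. This was the lowest adjusted value of the 13, and Acta1, Atp2a2, Ankrd1, Tgfb1 and Fgf23 had the same value.

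Acta1, skeletal alpha-actin, a fetal form of heart actin, was at 124.9, 132.3 and 135.5 on the sham arrays, at 169.4, 144.7 and 145.5 in the F- group and at 127.8, 141.2 and 147.1 in the F+ group. F+ array 1 overlapped the sham arrays, and the exact permutation p was 0.0714 (adjusted 0.362) for a difference of 0.15. Rcan1, a calcineurin target, was between 89.5 and 107.7 on the sham arrays and between 105.6 and 128.3 on the banded arrays (difference 0.20). Tnfrsf12a, the TWEAK receptor, had a difference of 0.21. These 2 genes were chosen after their values were seen. Nppa, atrial natriuretic peptide, did not separate the groups: it was at 57.7, 135.8 and 59.7 on the sham arrays, at 155.6, 37.0 and 43.6 in the F- group and at 149.5, 134.3 and 140.2 in the F+ group. Its highest sham value was on the array with high atrial genes, its difference was 0.69 without that array and -0.044 without F- array 1, and the exact permutation p was 0.738. The part of atrial tissue in the Nppa values was not tested. The list's median was 0.066 without F- array 1, with 12 of 13 members higher.

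The myosin heavy chains gave no separation. Myh6, the alpha form of the adult rat heart, was between 144.6 and 161.2 on the sham arrays and between 152.1 and 161.5 on the banded arrays (exact permutation p = 0.833). Myh7, the beta form that predominates in the fetal ventricle, was at 159.1, 112.3 and 137.1 on the sham arrays and between 137.1 and 148.4 on the banded arrays (exact permutation p = 0.524). Its sham arrays spread more widely than its banded arrays, and its difference of 0.079 turned to -0.053 without sham array 2. Ankrd1, a stretch-responsive muscle protein, was between 149.6 and 164.4 on the sham arrays and between 160.3 and 173.3 on the banded arrays (difference 0.067, or 0.024 without sham array 2, exact permutation p = 0.167). Atp2a2, the calcium pump of the sarcoplasmic reticulum, differed by -0.018 (exact permutation p = 0.119) and Gapdh, a glycolytic enzyme often used for reference, by -0.0034 (exact permutation p = 0.548), a direction that turned to 0.0027 with quantile normalization and 0.0044 with median centring. The sarcomere and Z-disc list had 14 of 23 members higher, with a median of 0.0028 and no member separated.

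Genes of fatty acid uptake and oxidation were lower in the banded arrays. All 32 measured members had a negative difference, with a median of -0.078, and 16 of them had an unadjusted limma p under 0.05 on the lower side, where 3.16% of all genes did. The list was chosen with earlier results of these data known, so its shares are a description and no test. At the median the difference was -0.040 for F- and -0.11 for F+, and in 30 of the 32 genes the F+ mean was below the F- mean. This was not particular to the list. The F+ mean was also the lower in 60 of 64 respiratory chain and ATP synthase genes. It was so in 57 of 63 mitochondrial ribosomal protein genes and 32 of 35 proteasome and muscle atrophy genes, but in only 2 of 26 macrophage genes and 0 of 12 collagens. Against the sham mean, 31 of the 32 fatty acid genes were lower in F+ and 27 of 32 in F-, and both groups were compared with the same 3 sham arrays. In 10 of the 32 genes the F+ and F- groups differed at an unadjusted limma p under 0.05, where 8.47% of all genes did, and in 0 at an adjusted p under 0.05. By array, the list's median was 0.049 on sham array 1, -0.027 and -0.023 on sham arrays 2 and 3, -0.086, -0.031 and -0.007 in the F- group and -0.089, -0.13 and -0.13 in the F+ group. F- array 3 thus lay within the sham range, F- array 2 just below it, and the F+ arrays and F- array 1 further below. Without sham array 1 the median was -0.057, with 31 of 32 members lower, and without F- array 1 it was -0.062.

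Of these 32 genes, 3 (9.38%) had all banded arrays below the sham arrays, where 1.64% of all genes did. Acot1, an acyl-CoA thioesterase and a PPAR alpha target, was dim, at 18.3, 11.9 and 11.1 on the sham arrays, at 10.1 on each of the F- arrays and at 9.4, 7.4 and 10.1 on the F+ arrays. Its difference of -0.50 was -0.28 without sham array 1. Mlycd, malonyl-CoA decarboxylase, which removes the brake on fatty acid entry into mitochondria, was at 70.1, 66.3 and 68.7 on the sham arrays and between 60.0 and 66.2 on the banded arrays (difference -0.12). The third was Decr1, described above. Members next in size, chosen after their values were seen, overlapped by little: Ech1, a dienoyl-CoA isomerase, was between 124.6 and 144.9 on the sham arrays and between 107.5 and 127.5 on the banded arrays (difference -0.20). Hadh, which oxidises hydroxyacyl-CoA, was at 138.9, 137.7 and 136.8 on the sham arrays, at 124.3, 136.5 and 136.9 in the F- group and at 125.1, 118.5 and 120.5 in the F+ group (difference -0.12). The F+ arrays of Hadh were all far below the sham arrays, and only F- array 1 of the F- group was. Cpt1b, the muscle carnitine palmitoyltransferase that admits fatty acids to mitochondria, differed by -0.038, and Cd36, a fatty acid transporter, by -0.051.

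**Figure D4:**
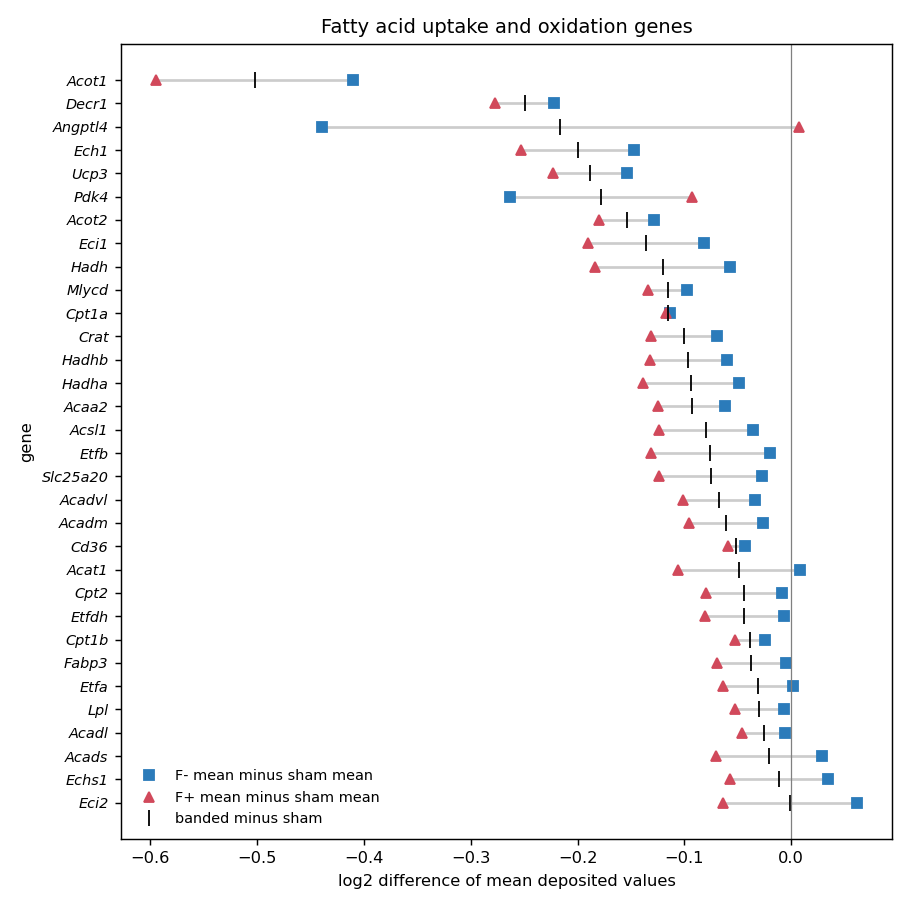
Log2 difference of mean deposited values from the sham mean (horizontal axis) for each of 32 genes of fatty acid uptake and oxidation, with the F- group, the F+ group and the banded mean marked. All 32 banded means are below 0, and in 30 genes the F+ mean is to the left of the F- mean, with Angptl4 and Pdk4 the exceptions. The F+ mean was also below the F- mean in 60 of 64 respiratory chain and ATP synthase genes, which are not shown.

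Outside that list, which does not hold Slc27a1, separated genes below also included Acacb (-0.13), the mitochondrial acetyl-CoA carboxylase that makes malonyl-CoA, and Acad11 (-0.10), Acaa1b (-0.12) and Pex11a (-0.15) of peroxisomal or related fatty acid handling. These 4 were chosen after their values were seen. Taken over both banded groups, other metabolic lists were more evenly divided. The respiratory chain and ATP synthase had 34 of 64 members higher, with a median of 0.0052. The 2 banded groups differed, with the F- mean below the sham mean in 13 of the 64 genes and the F+ mean in 45. Without sham array 1, 20 members were higher and 44 lower (median -0.0067). Only Atp5f1b, the ATP synthase beta subunit, was separated. Its sham arrays were at 166.9, 167.0 and 166.6 and its banded arrays between 161.2 and 166.4, a difference of -0.017, or -0.011 without F+ array 2. The TCA cycle and ketone list had 13 members higher and 13 lower, or 7 and 19 without sham array 1. The F- mean was below the sham mean in 6 of its 26 genes and the F+ mean in 16. Of this list, Pdhx, a component of pyruvate dehydrogenase, was above (0.11, and 0.067 without sham array 1). Got2, the mitochondrial aspartate aminotransferase, was below (-0.051). Glucose uptake and glycolysis had 22 of 31 members higher, with a median of 0.027 and no member separated. Creatine kinase and energy transfer had 6 of 14 higher (median -0.0033). Among 20 regulators of mitochondrial metabolism, 9 were higher, Opa1, which fuses inner membranes, was above (0.056) and Rxra, a partner of PPAR alpha, was below (-0.054).

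Of the genes of excitation, Hcn2 stood above and Kcna5 below. Of 25 ion channel genes 18 were lower, with a median of -0.041, or -0.014 without sham array 2 and F- array 1. Next to Kcna5, Kcnj5, a subunit of the acetylcholine-gated potassium channel, was at 74.0, 73.2 and 66.8 on the sham arrays, at 61.8, 67.6 and 72.4 in the F- group and at 59.2, 58.1 and 57.0 in the F+ group (difference -0.19). It was picked with its values in view. Its F+ arrays were all below the sham arrays, but F- arrays 2 and 3 overlapped them. In calcium handling 16 of 26 genes were lower (median -0.015). Cacna1c, the L-type calcium channel, was at 83.2, 82.6 and 85.4 on the sham arrays and between 77.0 and 82.5 on the banded arrays (-0.071), and Itpr2, an IP3 receptor, had -0.089.

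Signalling genes with all banded arrays below included receptors and enzymes of cyclic nucleotide metabolism. In the adrenergic and angiotensin list, also chosen with earlier results of these data known, 16 of 26 genes were lower, with a median of -0.015. All banded arrays were below for 3 of the 26 (11.5%), where 1.64% of all genes were. Pde3a, a cyclic nucleotide phosphodiesterase, was at 94.6, 94.1 and 94.8 on the sham arrays and between 85.2 and 91.8 on the banded arrays, a difference of -0.093 (SE 0.031). Adra1a, the alpha-1A adrenoceptor, was between 85.7 and 86.1 on the sham arrays and between 76.7 and 85.5 on the banded arrays (-0.085), and Adcy6, an adenylyl cyclase of heart muscle, had -0.081. Gucy1a1, a subunit of the nitric oxide receptor guanylate cyclase, was between 62.4 and 67.2 on the sham arrays and between 54.4 and 61.2 on the banded arrays (-0.13), in a list of endothelin and nitric oxide genes of which 14 of 21 were lower (median -0.032). Gata6, a cardiac transcription factor, was at 85.3, 80.5 and 81.6 on the sham arrays and between 71.1 and 79.5 on the banded arrays (-0.12), and 19 of the 31 growth signalling and transcription factor genes were lower (median -0.012).

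The Wnt list and the TGF-beta and BMP list were also chosen with earlier results of these data known, so their shares are a description. In Wnt signalling, 19 of 30 genes were lower, with a median of -0.023. All banded arrays were below for 4 of the 30 (13.3%) and above for 0, where 1.64% and 1.34% of all genes were. The 4 were the dim ligand Wnt2b (-0.11, or -0.072 without F- array 1), the coreceptor Lrp5 (-0.069), the transcription factor Tcf7 (-0.091) and the feedback inhibitor Axin2 (-0.064). Tcf7 was at 42.2, 42.1 and 41.5 on the sham arrays and between 36.5 and 40.6 on the banded arrays. In TGF-beta and BMP signalling 24 of 43 genes were higher (median 0.0079). Without sham array 2 and F- array 1, 18 of the 43 were higher, with a median of -0.0069. The separated members, 3 of 43 (6.98%), were all below, where 1.64% of all genes were. They were Mstn, the muscle growth inhibitor myostatin, between 22.9 and 24.9 on the sham arrays and between 18.2 and 22.7 on the banded arrays (-0.18), and the signal transducers Smad5 (-0.066) and Smad4 (-0.019). Tgfb1 itself overlapped, between 65.2 and 69.5 on the sham arrays and between 63.6 and 74.5 on the banded arrays (0.090, or 0.047 without sham array 2 and F- array 1, exact permutation p = 0.167). Among 14 insulin-like growth factor genes, Igfbp4 was above (0.12, from 49.4 to 53.3 on the sham arrays and from 53.5 to 60.9 on the banded arrays) while Igfbp3 was below.

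Fgf23 was at 26.3, 23.4 and 26.6 on the sham arrays, at 25.9, 27.4 and 24.1 in the F- group and at 43.4, 42.4 and 35.6 in the F+ group. The difference between all banded and sham arrays was 0.34 (exact permutation p = 0.167), and its F- arrays lay within or next to the sham range. Of the 26 FGF ligands and receptors 17 were lower (median -0.021), and none was separated. Vascular growth factors were lower in 19 of 29 (median -0.014).

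The main fibrillar collagens, Col1a1 and Col3a1, did not separate banded from sham arrays. Of 12 collagens 10 were higher, with a median of 0.019, or -0.0019 without sham array 2 and F- array 1, where 6 were higher and 6 lower, and only Col5a3, a minor fibrillar chain, was separated, below the sham arrays (-0.056). Col1a1, the main chain of fibrillar collagen, was between 72.9 and 85.3 on the sham arrays, at 87.2, 77.2 and 74.2 in the F- group and at 76.3, 82.1 and 85.4 in the F+ group (exact permutation p = 0.786). Col3a1 was between 74.0 and 78.0 on the sham arrays and between 72.4 and 83.9 on the banded arrays (exact permutation p = 0.571), and Acta2, smooth muscle actin of vessels and myofibroblasts, between 114.8 and 118.2 and between 111.6 and 121.4 (exact permutation p = 0.690). Matrix glycoproteins and proteoglycans had 28 of 46 higher (median 0.023, or 0.0071 without sham array 2 and F- array 1), metalloproteinases and inhibitors 20 of 25 (0.028) and integrins and adhesion genes 19 of 32 (0.018, or 0.0061 without these arrays). Cd44, a hyaluronan receptor, was above (0.059, from 41.9 to 42.1 on the sham arrays and from 42.8 to 46.0 on the banded arrays).

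Among the markers of other cell types, macrophage genes had the highest median. Of 26 macrophage genes 25 were higher, with a median of 0.13, and none was separated. By array, the list's median was 0.045, -0.046 and 0.016 in the sham-operated group, 0.19, -0.026 and -0.035 in the F- group and 0.19, 0.30 and 0.21 in the F+ group. F- arrays 2 and 3 thus lay within the sham range, and 13 of the 26 genes differed between the F+ and F- groups at an unadjusted limma p under 0.05, all higher in the F+ group, where 8.47% of all genes differed in either direction, and 0 of the 26 did at an adjusted p under 0.05. The median was 0.056 without sham array 2 and F- array 1. The part of macrophage content in F13a1, Alox5 and Anxa1, which were above on all banded arrays, was not tested. Fibroblast genes were higher in 13 of 20 (median 0.027, or 0.0090 without sham array 1), mast cell genes in 10 of 14 (0.022), lymphocyte genes in 8 of 18 (-0.0059) and neutrophil genes in 6 of 14 (-0.0093). Endothelial genes were higher in 9 of 21 (-0.0076), smooth muscle and pericyte genes in 8 of 17 (-0.0069), adipocyte genes in 2 of 14 (-0.026) and red cell genes in 7 of 13 (0.0039). Nerve and Schwann cell genes were higher in 8 of 16 (-0.0041), mesothelial and epicardial genes in 3 of 10 (-0.047, or -0.022 without sham array 2 and F- array 1) and skeletal muscle genes in 4 of 14 (-0.032, or -0.013 without F- array 1). Separated members of these lists were all below: Klf1 (-0.080), Ngfr (-0.12), Kcna1 (-0.091, or -0.036 without sham array 2) and Pvalb (-0.15).

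Atrial genes were lower in 11 of 16 (median -0.086), and the list's median by array was -0.059, 0.064 and -0.015 in the sham-operated group and between -0.17 and -0.043 on the banded arrays. Without sham array 2 it was -0.053, and without sham array 2 and F- array 1 together it was -0.014. Kcna5 is also an atrial gene, and the part of atrial tissue in its values was not tested.

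Most genes of cell division, the cytoskeleton and the ribosomes were higher by small amounts. Cell division genes were higher in 35 of 37, with a median of 0.083 and none separated, and sham array 1 had the lowest median (-0.078, against 0.049 and 0.028 on the other sham arrays). Without that array the median was 0.036 with 31 of 37 higher. Cytoskeleton genes were higher in 33 of 37 (median 0.045), and Cfl1, cofilin, which severs actin filaments, was at 76.5, 82.3 and 79.9 on the sham arrays and between 83.4 and 91.0 on the banded arrays (0.12). Cfl2, the muscle cofilin, was above by 0.054. Cytosolic ribosomal protein genes were higher in 50 of 57 (median 0.026), with Rps24 separated (0.10), and mitochondrial ribosomal protein genes in 54 of 63 (median 0.034, or 0.0074 without sham array 1), with Mrpl27 separated (0.075).

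**Figure D5:**
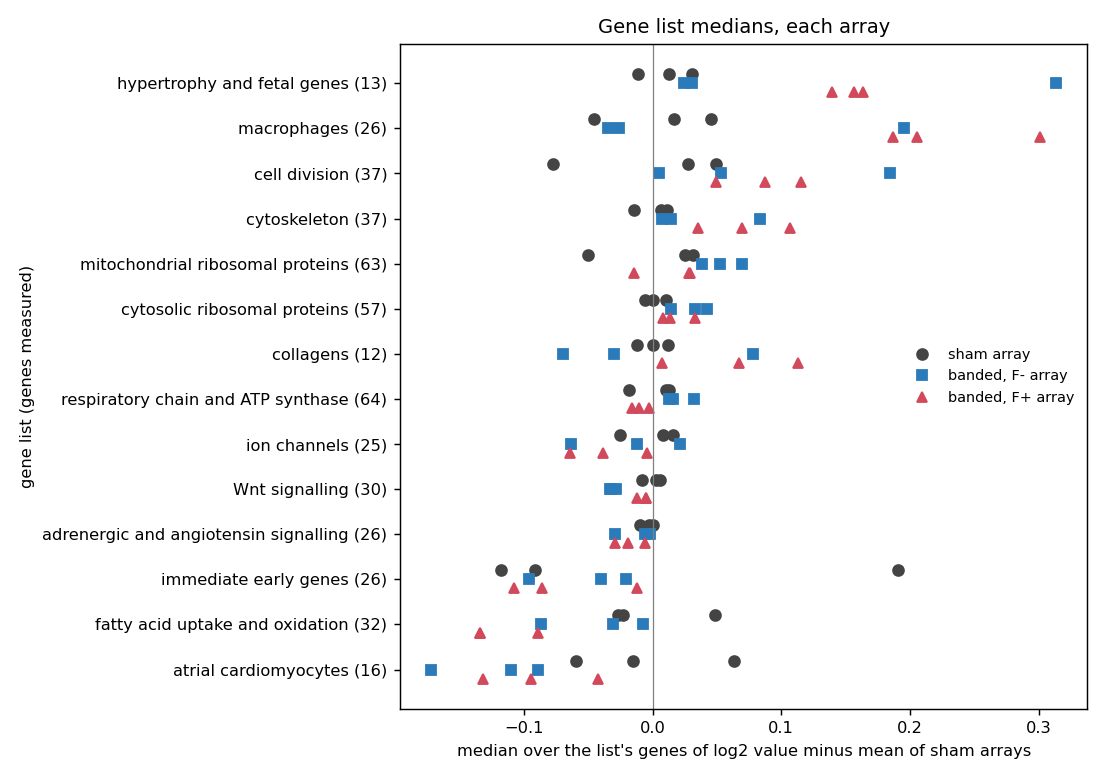
Median over the genes of a list of the log2 deposited value minus the sham mean (horizontal axis) on each of the 9 arrays for 14 lists, with the number of genes measured in brackets. Within the fatty acid list the F+ arrays are the lowest of the 9 (-0.089 to -0.13). Within the hypertrophy list F- array 1 is the highest (0.31), and sham array 1 is alone at 0.19 for the immediate early genes.

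Several stress genes had all banded arrays on one side. Hsp90aa1, the inducible cytosolic chaperone, was at 86.6, 87.1 and 86.0 on the sham arrays, at 106.1, 90.9 and 87.3 in the F- group and at 94.4, 97.0 and 102.0 in the F+ group (0.15, SE 0.060). Hspb3, a small heat shock protein of muscle, was above by 0.14, and 17 of 24 chaperone genes were higher (median 0.020). Ddit3, the stress transcription factor CHOP, was between 45.5 and 46.5 on the sham arrays and between 48.3 and 55.5 on the banded arrays (0.15), whereas Trib3, a CHOP target, was below (-0.13), and the unfolded protein response list was balanced at 12 higher and 12 lower. In oxidative stress, 25 of 37 genes were higher (median 0.012), with Nqo1, a quinone reductase, above (0.10), its repressor Keap1 below (-0.072, or -0.048 without F+ array 3) and Txnip, the thioredoxin inhibitor that also limits glucose uptake, below (-0.14, or -0.086 without sham array 1). Txnip was at 147.2, 130.8 and 131.1 on the sham arrays and between 111.6 and 130.1 on the banded arrays. C1s, a protease of the classical complement pathway, was at 66.9, 68.3 and 64.0 on the sham arrays, at 74.6, 71.1 and 69.6 in the F- group and at 75.3, 77.3 and 75.7 in the F+ group (0.15, SE 0.031), and 15 of 22 complement genes were higher (median 0.022), with 11 higher and 11 lower and a median of -0.00057 without sham array 2 and F- array 1. Asah2, a neutral ceramidase, was above by 0.12, with 8 of 18 ceramide and sphingosine genes higher (median -0.00090).

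The other lists had no separated member. A list's median close to 0 has no settled direction: with quantile normalization or median centring, 11 lists changed sign, none with a median over 0.0076 in size. Without 1 array, or without both sham array 2 and F- array 1, 33 of the 52 lists had a median of the same sign in each case. The median of the other 19 changed sign in at least 1 case. In all, 47 of the 52 medians changed sign or moved by more than 1.5 times, so most list medians depended on 1 or 2 arrays. Immediate early genes were lower in 20 of 26 (median -0.074), but sham array 1 alone was high (0.19, against -0.12 and -0.091), and without it the median was 0.057 with 19 higher. Chemokines and cytokines were higher in 26 of 46 (median 0.014), interferon response genes in 17 of 29 (0.0072), MHC class II genes in 7 of 11 (0.036, or -0.016 without sham array 2), hypoxia response genes in 12 of 21 (0.0025), clock genes in 5 of 16 (-0.028), glucocorticoid targets in 5 of 15 (-0.050) and proteasome and muscle atrophy genes in 17 of 35 (-0.00060).

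The position of the arrays is a strict and sometimes fine criterion. The gene just inside the limit above was Arf4, a vesicle transport GTPase, whose highest sham array was at 100.7 and lowest banded array at 100.8. The gene just outside it was Acoxl, where both were at 16.3. Below, Lamb2, a laminin chain, was just inside, with the lowest sham array at 100.2 and the highest banded array at 100.1, and A1cf was just outside, with both at 17.5. The difference of Lamb2 was -0.031 without sham array 1.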

How the data were processed

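Right ventricular RNA of 3 sham, 3 F- and 3 F+ samples was hybridized to 1 Affymetrix array each. The study's methods name TRIzol and sense-strand cDNA and state that hybridizations were repeated 3 times and averaged, while the labels name Sepasol and cRNA. The authors deposited 1 signal intensity per feature and array, and its normalization and scale are not given in the sources used here. On a log2 scale, all 29215 features entered 1 fit of 3 group means with limma 3.58.1 (R 4.3.3; data.table, version 1.17.8), adjusted by the Benjamini-Hochberg method. Precision is limited by the number of arrays. Of the features, 15310 carried 1 gene symbol, 323 carried several and 13582 were not listed, and 15279 matched RefSeq's GRCr8 by gene ID. The feature with the highest mean stood for a gene. Named were the 12 largest differences each way among separated genes above the dimmest 33.3% of features, up to 4 separated members of each of 52 lists, 13 fixed genes and the genes next to the limit of the rule. For the 13, an exact permutation test over 84 splits was run. Members and lists were chosen with earlier results of these data known. The procedure was tested on simulated data. Alternatives were other normalizations and transformations, filters, fits and each array left out. Plots used matplotlib 3.10.9 under Python 3.11.15.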

Additional observations from a re-analysis of the deposited data

Results flagged for a closer look

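Of 83 named genes, 10 had 1 banded array far from the other 5, measured as the gap to the nearest array divided by the range of the 6 banded arrays, and chance flags about 1 in 20 groups. F- array 1 was the highest for Tars3 (gap ratio 0.685) and Mrpl27 (0.690) and the lowest for Smad4 (0.8), Wnt2b (0.943), Tcf7 (0.756) and Trib3 (0.962). F+ array 2 was the lowest for Acot1 (0.741) and Atp5f1b (0.692), F- array 3 was the lowest for Tgfb1 (0.697), and F+ array 3 was the highest for Arf4 (0.642).

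In 6 of 52 gene lists the medians of all 3 F- arrays and of all 3 F+ arrays lay on opposite sides of the sham mean, a difference that was not tested. Hypoxia response genes (median difference, F+ minus F-, of 0.0681) and smooth muscle and pericyte genes (0.0614) were above the sham mean in the F+ group and below it in the F- group. The lists of the respiratory chain and ATP synthase (-0.0332), the TCA cycle and ketone use (-0.0285), regulators of mitochondrial metabolism (-0.0195) and the proteasome and muscle atrophy (-0.0397) lay the other way.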

How the results depend on the processing

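No feature passed limma's test under any alternative, and the lowest adjusted p lay between 0.280 and 0.849. The genes with all banded arrays above the sham arrays numbered 195, against 307 with median centring and 578 without sham array 2 and F- array 1, and those below numbered 238, against 781 without these 2 arrays. With each array left out in turn, 204 to 518 genes were above and 257 to 703 below, and fewer arrays make the criterion easier to meet. Of 83 named genes, 78 had the same direction in each of the 21 settings. The exceptions were Gapdh, at 0.0027 with quantile normalization and 0.0044 with median centring, Myh7, at -0.069 without sham array 2 and F- array 1, Col1a1, at -0.0087 without these arrays and -0.022 with array weights, Myh6, at -0.0093 with array weights, and Nppa. With each array left out in turn, the difference lay between -0.053 and 0.20 for Myh7, between -0.041 and 0.073 for Col1a1, between -0.044 and 0.035 for Myh6 and between -0.044 and 0.69 for Nppa, and the cause was not tested. Array numbers did not pair the samples: 0 of 9 same-number pairs correlated above 0.1 (-0.205 to 0.0532), and 1 of 9 arrays correlated best with its own number. With the number as a replicate block, 0 features were called higher and 0 lower, and 750 were higher and 868 lower at an unadjusted p under 0.05. Signal over background was not given, and the median log2 SD within groups was 0.11 in the dimmest 33.3% of features and 0.042 in the brightest.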

Other observations

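Cyp2e1, a cytochrome P450 that oxidises ethanol and is known from liver, had the largest negative difference of the genes compared, -0.92, and was chosen for that. It was at 83.7, 44.9 and 61.1 on the sham arrays, at 27.1, 41.1 and 58.5 in the F- group and at 27.5, 23.2 and 28.0 in the F+ group. The F+ arrays and F- array 1 lay far below the sham arrays, and F- array 3 lay among them. Sult1a1, Adh1c and Ugt2b, further enzymes of drug and alcohol metabolism, had all banded arrays below all sham arrays, with differences of -0.33, -0.29 and -0.25. The difference of Adh1c was smaller without sham array 2 and F- array 1, as given above. Ugt2b was among the dimmest 33.3% of features, where arrays vary more, and was not one of the genes named by rule.

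Among the 195 genes above was Odc1, the ornithine decarboxylase that starts polyamine synthesis, at 71.3, 71.8 and 76.7 on the sham arrays and between 77.7 and 87.4 on the banded arrays (0.14). Sms, spermine synthase, had 0.09. Both were picked from the separated genes after their values were seen.

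Many deposited values repeat exactly across arrays. In 39.0% of the genes 3 or more of the 9 arrays had the gene's median value to 1 decimal, as in Acot1, at 10.1 on 4 banded arrays, and Wnt2b, at 24.4 on 4. The share was 16.9% among the genes above and 30.7% among those below. In a separated gene the median is a banded value that no sham array can share, so the rule itself favours a lower share. How these repeats arose in the processing was not tested.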
